A study of Mus musculus with 7 samples.

Results

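Arginase, tryptophan enzymes and amino acid transporters were followed as a set of 9 genes in group 2 innate lymphoid cells (ILC2s), lymphocytes that carry no antigen receptor and release type 2 cytokines. The genes were chosen by symbol: Arg1 and Odc1 (arginine and ornithine), Tph1 and Ido1 (tryptophan), and the transporter genes Slc7a1, Slc7a5, Slc7a8, Slc3a2 and Slc1a5. All 9 symbols matched 1 identifier each among the 55335 in the deposited tables, and 8 of the 9 passed the filter on low counts that left 17015 genes for testing. Ido1 did not pass.

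The cells had been sorted as CD45+ Lineage- ST2+ from mouse hearts, and the comparison asked how ILC2s that infiltrate a rejecting heart transplant differ from those of the resting heart. The naive group had 3 libraries of hearts that received no transplant. The allograft group had 4 libraries of Balb/C hearts taken from C57BL/6 (B6) recipients on day 7 after transplantation, in a model that develops acute rejection. The labels also gave the naive samples a time of 7 days, which was not used for them. Each library pooled the cells of 4 to 7 hearts. The labels gave no genotype and neither age nor sex for either group, and no strain for the naive hearts. Graft ILC2s may have come from the donor or the recipient, which the labels did not tell apart. The p-values measure the spread between pools.

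Arginase 1 splits arginine into ornithine and urea, and ornithine decarboxylase then turns ornithine into putrescine, the first of the polyamines that dividing cells need. Arginase 1 is known as a constitutive product of ILC2s and as a metabolic checkpoint of their growth. Tryptophan has a pair of competing routes: tryptophan hydroxylase 1 starts the path to serotonin, and indoleamine 2,3-dioxygenase 1 starts the path to kynurenine. Lymphocytes take these amino acids in through CAT1 (Slc7a1, for arginine and lysine), LAT1 (Slc7a5) and LAT2 (Slc7a8) for large neutral amino acids such as leucine and tryptophan, and ASCT2 (Slc1a5) for glutamine. LAT1 and LAT2 reach the cell surface only when joined to the heavy chain CD98, the product of Slc3a2.

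Total counts lay between 29107326 and 53044907 per library. The 14 ILC2 markers, among them Il1rl1 (the ST2 receptor) and Gata3, summed to between 11996 and 12667 CPM in the allografts (CPM is a gene's share of its library's counts, scaled to a common total). Naive replicates 1 and 3 reached 12023 and 16129 CPM, and naive replicate 2 only 1184 CPM. That library also held 10636 CPM of 12 kidney tubule markers, with 0 of the 12 undetected, against 69.8 to 318 CPM in the other 6 libraries. It had 26.5% of its counts on mitochondrial genes, against 2.04% to 3.11% elsewhere. Fitted changes of the tested genes among the 9 are given with and without naive replicate 2. Unless said otherwise, 3 naive values stand in the order of replicates 1 to 3 and 4 allograft values in the order of replicates 1 to 4. Naive replicates 1 and 3 were also unlike each other in how many genes they held: of 7377 genes with at least 10 CPM in all 4 allografts, 93 had no count in naive replicate 1, 125 in naive replicate 2 and 417 in naive replicate 3. In bulk RNA of this kind, fewer cells of a type and less RNA per cell cannot be told apart.

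Arg1 was abundant in every allograft and spread over a wide range in the naive hearts. Its level was 1586 CPM in naive replicate 1, 5.69 in naive replicate 2 and 167 in naive replicate 3, and 995, 761, 897 and 867 CPM in allograft replicates 1 to 4. The allografts thus formed a narrow band (880 ± 96.6 CPM, SD, n = 4), with 1 naive library above it and the other 2 below. Naive replicates 1 and 3 differed 9.49-fold in Arg1, and 9.72% of the 8354 genes counted in both differed at least as much. Genes with no count in naive replicate 1 or 3, Tph1 among them, have no such ratio and were left out of that share. The 4 allografts differed 1.31-fold, less than the median of 1.59-fold over 9667 genes with an average log2 CPM of at least 3. Arg1 (ENSMUSG00000019987) is a protein-coding gene on the minus strand of chr10:24915221-24927484 in mm10.

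The fitted change of Arg1 was 0.59 on the log2 scale (SE 1.25, adjusted p = 0.943 by edgeR), and it did not pass. Without naive replicate 2 the value was -0.017 (SE 0.733, adjusted p = 0.995), and without naive replicate 1 it was 3.27 (SE 1.17, adjusted p = 0.226). It was 2.72 and 2.87 with limma on log2(FPKM + 1) and log2(FPKM + 0.1), with adjusted p of 0.456 and 0.443. The direction and the size therefore changed with the naive library left out, and the size also with the model. Macrophages are another known source of Arg1. In naive replicate 1, where Arg1 was highest, 11 of 13 macrophage and monocyte markers had no count, Csf1r, Adgre1, Cd68 and Mrc1 among them, and Lyz2 and Ccr2 were the ones present. The summed level of the list was 209 CPM there, 365 and 994 CPM in naive replicates 2 and 3, and 525 to 805 CPM in the allografts. Ccr2 alone gave 206, 5.74 and 514 CPM of the naive sums and 339 to 614 CPM of the allograft sums. The part of macrophages in the Arg1 level was not tested in any library.

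Odc1, the next enzyme on the route to polyamines, was highest in naive replicate 3 rather than naive replicate 1. It reached 395, 114 and 1408 CPM in naive hearts and 445, 604, 517 and 585 CPM in allografts. The allografts again lay within a narrow band (538 ± 72.2 CPM, SD, n = 4), above naive replicates 1 and 2 and below naive replicate 3. The fitted change was -0.33 (SE 0.671, adjusted p = 0.938), or -0.81 (SE 0.471, adjusted p = 0.369) without naive replicate 2 and 0.94 (SE 0.419, adjusted p = 0.312) without naive replicate 3. Odc1 (ENSMUSG00000011179) lies on the plus strand at chr12:17544794-17551505.

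**Figure D1:**
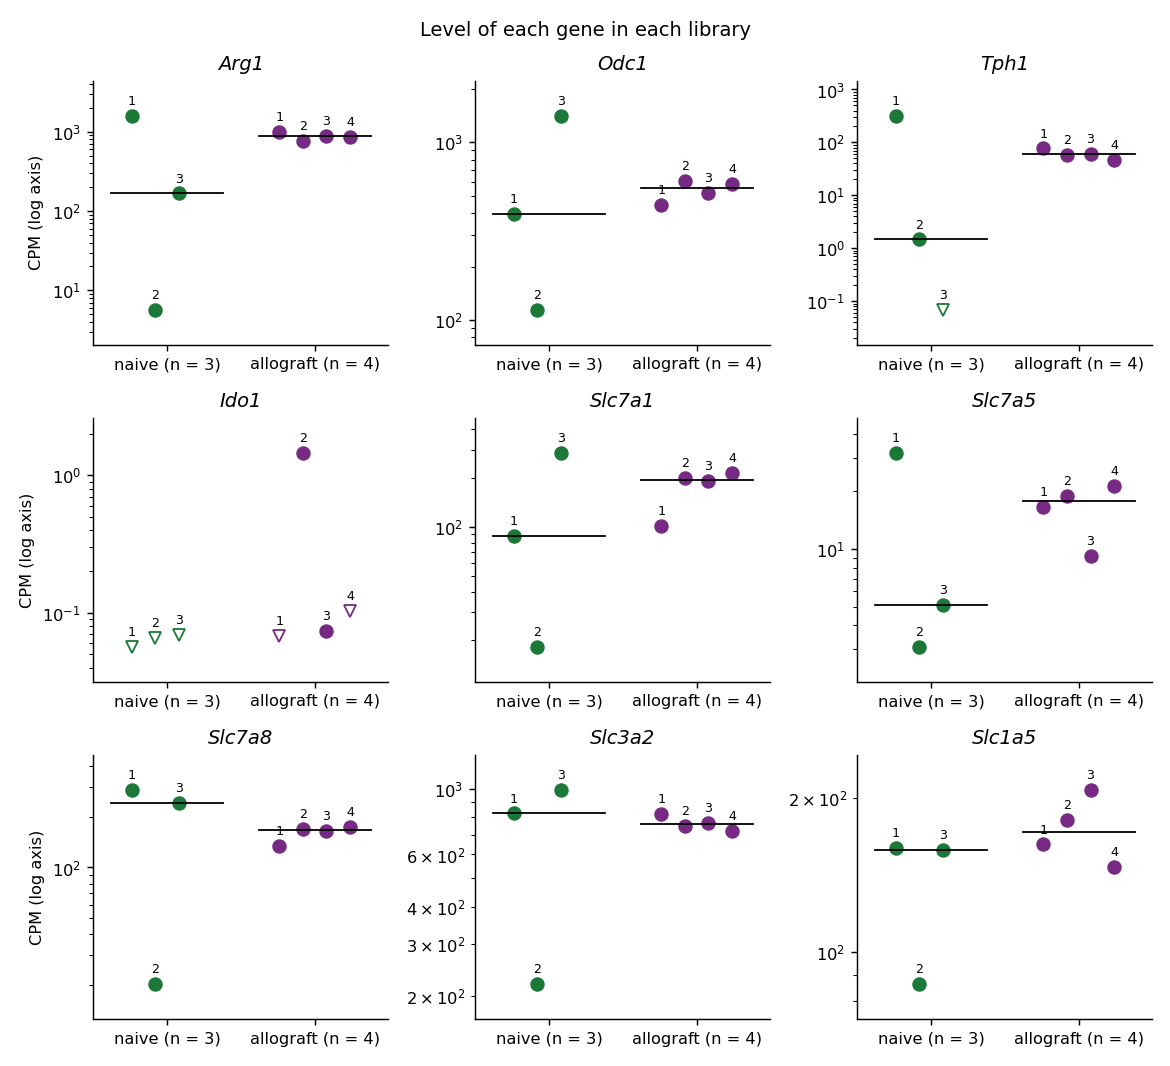
CPM (log axis, a separate range in each panel) of the 9 genes in the 3 naive (green) and 4 allograft (purple) libraries, numbered by replicate. Lines mark the group medians (none drawn for Ido1) and open triangles mark a count of 0, drawn at the level of 3 counts. The allografts lie close together in most panels, and naive replicate 2 is the lowest library for 7 of the 9 genes.

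Tph1 gave the widest range among the naive libraries. It had 16778 counts in naive replicate 1, 67 in naive replicate 2 and 0 in naive replicate 3, which is 316, 1.47 and 0 CPM. A count of 0 in naive replicate 3 allows up to 0.0688 CPM. The allografts held 77.0, 57.6, 61.5 and 46.7 CPM (60.7 ± 12.5, SD, n = 4), so that they lay between naive replicate 1 and the other 2 naive libraries. The fitted change was -0.79 (SE 1.92, adjusted p = 0.950) and -1.40 (SE 1.87, adjusted p = 0.752) without naive replicate 2. Without naive replicate 1 it was 5.82 (SE 1.85, adjusted p = 0.180). Mast cells also use tryptophan hydroxylase 1. Together with basophils they were followed by 11 markers, whose sum was 444, 105 and 797 CPM in the naive hearts and 337 to 365 CPM in the grafts. Kit, which ILC2s can also express, gave 21.1, 50.4 and 424 CPM of the naive sums. Mcpt8 (114, 0.0440 and 13.1 CPM), Fcer1a (5.60, 0 and 0 CPM) and Ms4a2 were highest among the naive hearts in replicate 1, as Tph1 was. So were Cpa3 (153, 12.6 and 141 CPM) and Cma1 (81.9, 1.98 and 67.4 CPM), which unlike Tph1 were also high in replicate 3. Tpsab1 (0, 0 and 45.2 CPM), Tpsb2 (46.3, 0 and 69.3 CPM), Mcpt4 and Kit were highest in replicate 3, and Hdc and Gata2 in replicate 2. The allografts had 9.45 to 30.0 CPM of Mcpt8 and 9.42 to 20.3 CPM of Fcer1a. The part of these cells in the Tph1 level, and that of the missing genes of naive replicate 3, was not tested.

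Tph1 (ENSMUSG00000040046, minus strand, chr7:46644641-46672537) is the gene with the largest differences here, and RefSeq (GRCm38.p6) lists 2 start sites for it. The 250 bases before each are shown because the gene-level counts do not tell the sites apart. Capitals mark the match to AGATAG, a letter string of the kind bound by GATA factors, whose member GATA3 defines ILC2s.

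Tph1 upstream start site, chr7:46672538-46672787, minus strand: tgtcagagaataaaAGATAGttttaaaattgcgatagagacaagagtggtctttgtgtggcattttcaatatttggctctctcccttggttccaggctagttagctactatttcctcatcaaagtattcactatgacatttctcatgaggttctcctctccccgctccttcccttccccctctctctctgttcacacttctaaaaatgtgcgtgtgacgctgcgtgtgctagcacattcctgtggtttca

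Tph1 downstream start site, chr7:46667378-46667627, minus strand: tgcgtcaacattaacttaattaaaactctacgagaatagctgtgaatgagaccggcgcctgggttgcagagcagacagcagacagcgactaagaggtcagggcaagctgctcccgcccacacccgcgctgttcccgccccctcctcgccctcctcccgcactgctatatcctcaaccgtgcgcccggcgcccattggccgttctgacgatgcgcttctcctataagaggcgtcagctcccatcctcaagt

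The upstream window held AGATAG once, 236 bases before the start, and the downstream window did not hold it. Both strands were searched for AGATAG and for the related AGATAA. The search also covered the E-box bound by MYC, which reads CACGTG, and the element TGATGNAA bound by ATF4 with its partners. The last was the palindrome bound by STAT6, in which TTC is joined by 4 bases of any kind to GAA. AGATAG and AGATAA differ in their last letter. Of 32851 windows of the same length, 7.71% held AGATAG, 9.99% AGATAA, 6.02% CACGTG, 3.45% TGATGNAA and 5.85% the STAT6 palindrome. Of the 9 genes, 5 had an entry (Odc1, Tph1, Slc7a1, Slc7a8 and Slc3a2, 7 windows in all), and the match in Tph1 was the only one.

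Ido1 was close to absent. It had no count in any of the 3 naive libraries, and 0, 47, 3 and 0 counts in allograft replicates 1 to 4. Allograft replicate 2 thus held nearly all of the signal, at 1.45 CPM, and no fold or test is given. Dendritic cells are a known source of this enzyme. Their 12 markers, Flt3, Zbtb46 and Clec9a among them, were all detected in each allograft and summed to 104 to 144 CPM there, 104 CPM in allograft replicate 2. In the naive libraries the sum was 23.9 to 57.9 CPM, and 10 of the 12 had no count in naive replicate 1. The part of these cells in the Ido1 counts was not tested. Ido1 (ENSMUSG00000031551) lies on the minus strand at chr8:24584136-24597009.

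Among the transporters, Slc7a8 and its heavy chain partner Slc3a2 were the ones whose allograft levels lay below both naive replicates 1 and 3. Slc7a8, which encodes LAT2, had 289, 20.2 and 243 CPM in naive hearts against 135, 170, 164 and 174 CPM in allografts. The 4 allografts lay below naive replicates 1 and 3 and above naive replicate 2. Over all 7 libraries the fitted change was -0.24 (SE 0.655, adjusted p = 0.959). Without naive replicate 2 it was -0.77 (SE 0.196, adjusted p = 0.0935), against a median of 0.23 over all genes in that fit. This was the smallest adjusted p of any of the 8 tested genes in any fit, and it did not pass 0.05.

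Slc7a8 (ENSMUSG00000022180) lies on the minus strand at chr14:54722209-54781946. The stretch before its RefSeq start is shown, up to the first base that the GENCODE M21 models count as exon, because it is the gene nearest to the threshold. None of the letter strings named above occurred in its full window.

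Slc7a8, chr14:54781947-54782136, minus strand: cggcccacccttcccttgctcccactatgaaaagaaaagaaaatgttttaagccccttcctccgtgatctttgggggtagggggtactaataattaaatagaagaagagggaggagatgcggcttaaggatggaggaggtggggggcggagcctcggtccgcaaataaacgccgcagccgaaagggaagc

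Slc3a2, the shared heavy chain, had 825, 220 and 987 CPM in naive hearts against 821, 747, 768 and 720 CPM in allografts. The gap was small, since allograft replicate 1 came close to naive replicate 1. The 4 allografts differed 1.14-fold, and 96.7% of those 9667 genes differed at least as much. The fitted change was 0.074 (SE 0.431, adjusted p = 0.985) and -0.30 (SE 0.183, adjusted p = 0.404) without naive replicate 2. It was -0.066 with DESeq2 size factors, which moved the median of all genes from -0.01 to -0.20. Slc3a2 (ENSMUSG00000010095) lies on the minus strand at chr19:8706882-8723369.

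Slc7a5, which encodes the partner LAT1, was much scarcer. It had 31.7, 3.08 and 5.09 CPM in naive hearts against 16.6, 18.9, 9.23 and 21.3 CPM in allografts. As with Arg1 and Tph1, naive replicate 1 lay above the allografts and the other 2 naive libraries below them. The fitted change was 0.26 (SE 0.818, adjusted p = 0.967), -0.19 (SE 0.752, adjusted p = 0.933) without naive replicate 2 and 1.74 (SE 0.625, adjusted p = 0.227) without naive replicate 1. Slc7a5 (ENSMUSG00000040010) lies on the minus strand at chr8:121881150-121907694.

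Slc7a1, the arginine importer, followed the order of Odc1. It had 88.0, 18.3 and 286 CPM in naive hearts against 101, 200, 192 and 216 CPM in allografts. Naive replicate 3 lay above every allograft and the other 2 naive libraries below. The fitted change was 0.36 (SE 0.733, adjusted p = 0.938), -0.14 (SE 0.522, adjusted p = 0.925) without naive replicate 2 and 1.63 (SE 0.585, adjusted p = 0.252) without naive replicate 3. Slc7a1 (ENSMUSG00000041313) lies on the minus strand at chr5:148327410-148399904.

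Slc1a5, which encodes the glutamine transporter ASCT2, varied least among the naive libraries. It had 160, 86.5 and 158 CPM in naive hearts against 162, 181, 207 and 147 CPM in allografts. Naive replicates 1 and 3 differed 1.01-fold and lay within the range of the allografts. The fitted change was 0.21 (SE 0.272, adjusted p = 0.885) and 0.08 (SE 0.218, adjusted p = 0.887) without naive replicate 2. It was the one gene of the 8 whose fitted change was positive in all 14 other fits, and it passed in none of them. Without naive replicate 2 it lay below the median of all genes (0.08 against 0.23). So it did with the replicate block (0.28 against 0.55) and limma on log2(FPKM + 0.1) (0.37 against 0.52). In the other fits it lay above that median. Slc1a5 (ENSMUSG00000001918) lies on the plus strand at chr7:16781340-16798274. None of the 9 genes shared exon bases with another gene in GENCODE M21.

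**Figure D2:**
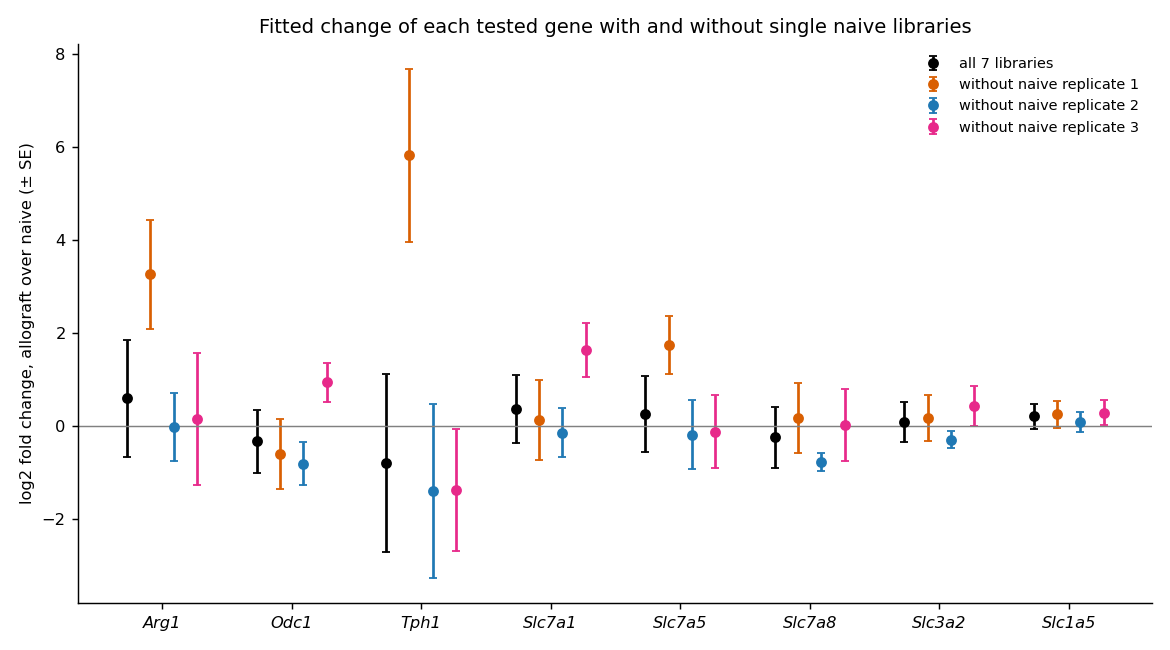
Fitted log2 fold change, allograft over naive, of the 8 tested genes with standard errors, over all 7 libraries (black) and without naive replicate 1 (orange), 2 (blue) or 3 (pink). Arg1 moves from -0.017 to 3.27 and Tph1 from -1.40 to 5.82 between these fits, while Slc1a5 stays between 0.08 and 0.29.

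Across these 8 genes, 0 passed an adjusted p of 0.05 with edgeR, where 0.0353% of all tested genes passed, and 0 had an unadjusted p under 0.05, against 10.3% of all tested genes. DESeq2 (5.95% of all genes called, 15% at an unadjusted p under 0.05) and limma on log2(FPKM + 1) (0.447% and 13%) also called 0 of the 8, with 0 at an unadjusted p under 0.05. DESeq2 gave no p for Tph1. All 8 estimates were positive with limma, where the median of all genes was 0.21, so the signs of Odc1, Tph1 and Slc7a8 differed from those of edgeR over the same 7 libraries. Those 3 genes also turned positive in some fits that left out naive replicate 1 or 3. The remaining fits of all 7 libraries called 0 as well, where they called 0.0235% of all genes with DESeq2 size factors, 0.0142% with no filter on low counts, 0.0342% with a mean of at least 50 counts, 1.18% with limma on log2(FPKM + 0.1) and 0% with a replicate block. With any 1 allograft left out, 0 of the 8 and 0% of all genes passed. Without naive replicate 2, 0 of 8 passed (3.1% of all genes) and Slc7a8 alone had an unadjusted p under 0.05 (20.2% of all genes). Without naive replicate 1, 0 of 8 passed (0.568% of all genes), and Arg1, Tph1 and Slc7a5 had an unadjusted p under 0.05 (17.6% of all genes). Without naive replicate 3, 0 of 8 passed (0.0372%) and Slc7a1 alone had an unadjusted p under 0.05 (16.7%). The median fitted change of the 8 was 0.14, beside -0.01 over all genes, and -0.24 beside 0.23 without naive replicate 2.

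The groups overlapped for each of the 9 genes when all 7 libraries were used. For 7 of them, all but Ido1 and Slc1a5, naive libraries lay both above and below every allograft. Among all tested genes, every allograft was above every naive library for 12.5% and below for 2.15%. Without naive replicate 2, Slc7a8 and Slc3a2 were lower in every allograft, 2 of 9 genes, where 7.15% of all genes did the same, and 0 of 9 were higher in every allograft, where 21% of all genes were.

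Levels of different genes were compared as FPKM, which is scaled to gene length. In each of the 4 allografts Arg1 came first (296 to 385 FPKM), then Slc3a2 (177 to 201), Odc1 (113 to 154), Slc1a5 (30.5 to 43.2) and Slc7a8 (23.1 to 30.04). These 5 ranges did not overlap. Slc7a1 (7.53 to 16.2 FPKM) and Tph1 (6.55 to 10.7 FPKM) came next and overlapped each other, and Tph1 was above Slc7a1 in allograft replicate 1. Slc7a5 (2.16 to 4.95 FPKM) and Ido1 (at most 0.681 FPKM) were last in each.

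The naive libraries kept to this order in part. Naive replicate 1 also had Arg1 (625 FPKM), Slc3a2 (205) and Odc1 (102) in front. In naive replicate 3 Odc1 led (366 FPKM), before Slc3a2 (248) and Arg1 (66.4). Slc7a8 stood above Slc1a5 in naive replicates 1 (50.5 against 33.6 FPKM) and 3 (42.9 against 33.5), and below it in all 4 allografts and in naive replicate 2. The light chains stood far below their heavy chain: the ratio of Slc7a8 to Slc3a2 in FPKM was 0.246, 0.0646 and 0.173 in naive replicates 1 to 3 and 0.115 to 0.170 in the allografts. For Slc7a5 to Slc3a2 it was 0.0365, 0.0132 and 0.00489 in the naive libraries and 0.0114 to 0.0280 in the allografts. The Slc7a8 share was thus higher in naive replicates 1 and 3 than in any allograft, narrowly so for naive replicate 3, and the naive values of Slc7a5 lay above, within and below the allograft range.

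**Figure D3:**
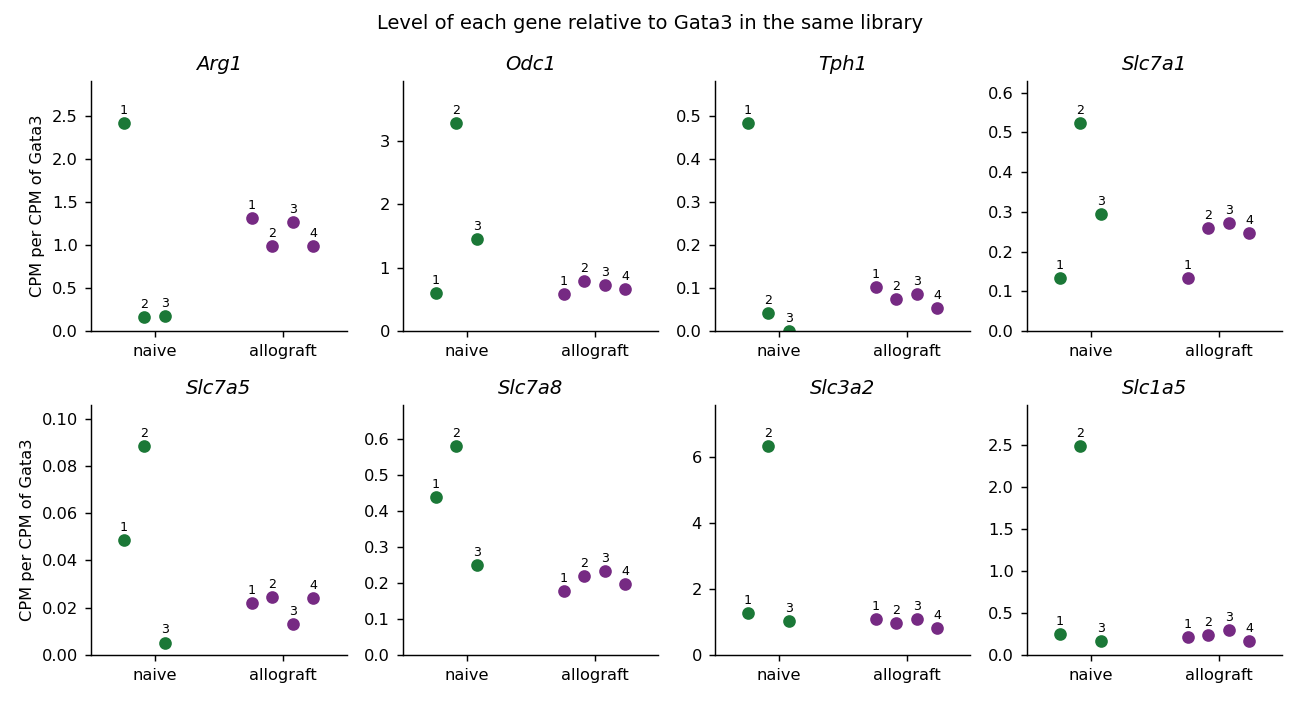
CPM of each of the 8 tested genes divided by the CPM of Gata3 in the same library (linear axis from 0), for 3 naive (green) and 4 allograft (purple) libraries numbered by replicate. For Slc7a8 the lowest naive value is 0.250 and the highest allograft value 0.233, while for Arg1 naive replicates 2 and 3 sit near 0.163 and 0.172, below every allograft.

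Gata3, the lineage factor of ILC2s, had 654, 34.8 and 970 CPM in naive hearts against 706 to 876 CPM in the allografts. Each gene was set against it within its own library. The ILC2 marker Il1rl1 had 745, 6.79 and 343 CPM in naive hearts against 523 to 756 CPM in the allografts. Whether Gata3 came from ILC2s alone in naive replicate 2 was not tested. Per CPM of Gata3, Arg1 stood at 2.42, 0.163 and 0.172 in naive replicates 1 to 3 and at 0.990 to 1.32 in the allografts. On this scale, which depends on Gata3 as the reference, naive replicates 2 and 3 were alike, and both lay below the allografts. Tph1 stood at 0.483, 0.0423 and 0 in the naive libraries and at 0.0533 to 0.102 in the allografts. Odc1 (0.604, 3.28 and 1.45 against 0.589 to 0.786), Slc1a5 (0.245, 2.48 and 0.163 against 0.168 to 0.294) and Slc3a2 (1.26, 6.31 and 1.02 against 0.822 to 1.09) had their highest value in naive replicate 2, the library of the kidney tubule markers. So did Slc7a1 (0.135, 0.524 and 0.294 against 0.134 to 0.272) and Slc7a5 (0.0485, 0.0883 and 0.00525 against 0.0131 to 0.0245). The part of those other cells in these values was not tested. Slc7a8 too was highest in naive replicate 2, and the part of those other cells was not tested for it either. It was the one gene of the 9 for which the groups did not overlap on this scale. Its values were 0.441, 0.580 and 0.250 in the naive libraries and 0.178 to 0.233 in the allografts. Among all other tested genes, 6.44% were likewise lower per Gata3 in every allograft and 3.8% higher.

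The genes whose profile over the 7 libraries was most like that of Arg1 were found by the root mean square difference of centred log2 CPM among 9613 candidates. They were Alox5 (difference 0.2998), which encodes 5-lipoxygenase of leukotriene synthesis, the histone genes Hist1h2ai (0.308) and Hist1h2ac (0.399), the G protein-coupled receptor gene Gpr171 (0.348) and the DNA methylation factor gene Uhrf1 (0.400). Alox5, for example, had 123, 0.813 and 17.4 CPM in naive hearts against 69.6 to 99.2 CPM in the allografts. Nearest to Tph1 were Cd79b (0.447), a part of the B cell receptor, and 4 genes of DNA replication and cell division, Nusap1 (0.485), Asf1b (0.524), Racgap1 (0.542) and Rrm2 (0.586). All 5 had 0 counts in naive replicate 3, as Tph1 did. The candidates share libraries and depth, and the likeness is given as a description.

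The wider pathways were read from 5 lists with 123 genes found in the tables, of which 97 were tested. With edgeR 0 of the 97 passed (0.0353% of all genes), and 13 had an unadjusted p under 0.05, 2 higher and 11 lower in allografts, which is 13.4% beside 10.3% of all genes. DESeq2 called 9 of them (5.95% of all genes) and limma 0 (0.447% of all genes on log2(FPKM + 1)). DESeq2 gave no p for some of the tested genes, Arg2, Slc18a1, Ahr and Rragd among them, so it could not call these. Without naive replicate 2, 2 of 99 passed (3.1% of all genes), and 21 had an unadjusted p under 0.05, 15 higher and 6 lower, a share of 21.2% beside 20.2% of all genes.

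In the arginine and polyamine list 0 of 18 tested genes passed, and the median change was -0.63 on the log2 scale (-0.41 without naive replicate 2). Sat1, the enzyme that acetylates polyamines for export and breakdown, had 194, 301 and 496 CPM in naive hearts against 138 to 169 CPM in the allografts. The groups did not overlap, and the fitted change was -1.31 (SE 0.383, adjusted p = 0.280; with DESeq2 -1.54, adjusted p = 0.0228). The change was -1.21 (adjusted p = 0.147) without naive replicate 2. Amd1, which supplies the propylamine donor for spermidine, had 69.5, 22.5 and 65.1 CPM against 25.0 to 38.3 CPM. Its fitted change was -0.97 (adjusted p = 0.424), and -1.26 (adjusted p = 0.0757) without naive replicate 2. With DESeq2 it passed (-1.12, adjusted p = 0.0250).

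Gatm, Ass1 and Oat draw on arginine, citrulline and ornithine, and were low in the allografts and in naive replicate 1. Gatm, of creatine synthesis, had 14.9, 60.7 and 49.4 CPM in naive hearts against 10.2 to 17.2 CPM in the allografts (log2 fold change -1.93, adjusted p = 0.327). Ass1, which rebuilds arginine from citrulline, had 41.1, 171 and 132 CPM against 37.96 to 70.4 CPM (-1.48, adjusted p = 0.424). Oat, which turns ornithine to glutamate semialdehyde, had 84.2, 298 and 145 CPM against 73.0 to 107 CPM (-1.40, adjusted p = 0.425). These 3 genes are strongly expressed in kidney, and naive replicate 2 was the highest library for each. Without it the values were -1.29, -0.81 and -0.47, with adjusted p between 0.253 and 0.449. The part of kidney cells in the levels of these 3 genes was not tested. Of the 3, DESeq2 called Gatm (-2.21, adjusted p = 0.0342).

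The second arginase gene Arg2 was at 0 counts in naive replicates 1 and 3, at 21.5 CPM in naive replicate 2, and at 0 to 3.08 CPM in the allografts, and its FPKM exceeded that of Arg1 in naive replicate 2 alone, where the ratio of Arg1 to Arg2 was 0.169. Nos2, which competes with arginase for arginine, had no count in the naive libraries and at most 1.48 CPM in allografts, with no count in 2 of the 4. The antizyme gene Oaz1, whose product marks ornithine decarboxylase for destruction, had 360, 119 and 696 CPM in naive hearts against 307 to 378 CPM in the allografts (log2 fold change -0.29, adjusted p = 0.920, and -0.67, adjusted p = 0.270, without naive replicate 2). The antizyme inhibitor gene Azin1 had 70.9, 44.8 and 26.2 CPM against 25.1 to 58.3 CPM (-0.24, adjusted p = 0.936, and -0.10, adjusted p = 0.947).

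In the list of tryptophan, kynurenine and serotonin genes 0 of 17 tested genes passed, and the median was -0.49, or 1.62 without naive replicate 2. Il4i1, a secreted oxidase of aromatic amino acids, had 0 counts in the 3 naive libraries and 0.386, 1.42, 2.89 and 3.68 CPM in allograft replicates 1 to 4. It was at least 32.8-fold higher, counting the naive mean at 3 counts per library, which allows for counting error only. Its adjusted p was 0.155 with edgeR, 0.0731 without naive replicate 2 and 7.83e-05 with DESeq2. Qdpr, which recycles the cofactor of tryptophan hydroxylase, had 146, 135 and 121 CPM in naive hearts against 36.8 to 105 CPM in the allografts, with no overlap (log2 fold change -1.38, SE 0.422, adjusted p = 0.312; with DESeq2 adjusted p = 0.0366). Its change was -1.19 (adjusted p = 0.219) without naive replicate 2.

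Other steps of these routes were low or uneven. Ddc, the next enzyme toward serotonin, had no count in naive replicates 1 and 3 and in allograft replicates 2 and 4, 10.7 CPM in naive replicate 2 and at most 0.999 CPM in the allografts. The vesicular amine transporter gene Slc18a1 (0.434, 79.9 and 0.275 CPM against 0.227 to 2.35) and the kynurenine aminotransferase genes Kyat1 (0, 54.8 and 1.81 against 0 to 5.04) and Kyat3 (4.45, 29.4 and 0 against 1.08 to 14.3) were highest in naive replicate 2. Pts, of cofactor synthesis, had 61.2, 117 and 6.13 CPM in naive hearts against 27.0 to 57.0 CPM in the allografts. The receptor gene Ahr, which senses kynurenine and indoles, had 18.02, 8.79 and 99.6 CPM in naive hearts against 36.5 to 52.3 CPM in the allografts (log2 fold change -0.05, adjusted p = 0.996, and -0.50, adjusted p = 0.731, without naive replicate 2). Qprt, of the kynurenine route to NAD, falls outside the naming rule. It had 0, 11.5 and 0 CPM in naive hearts against 1.25 to 6.36 CPM in allografts, so naive replicate 2 lay above every allograft. Of the fits run, it passed only in the one without that library (adjusted p = 0.0463 by edgeR). The allograft mean was then at least 61.5-fold higher, counting naive replicates 1 and 3 at 3 counts each. That bound allows for counting error only.

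**Figure D4:**
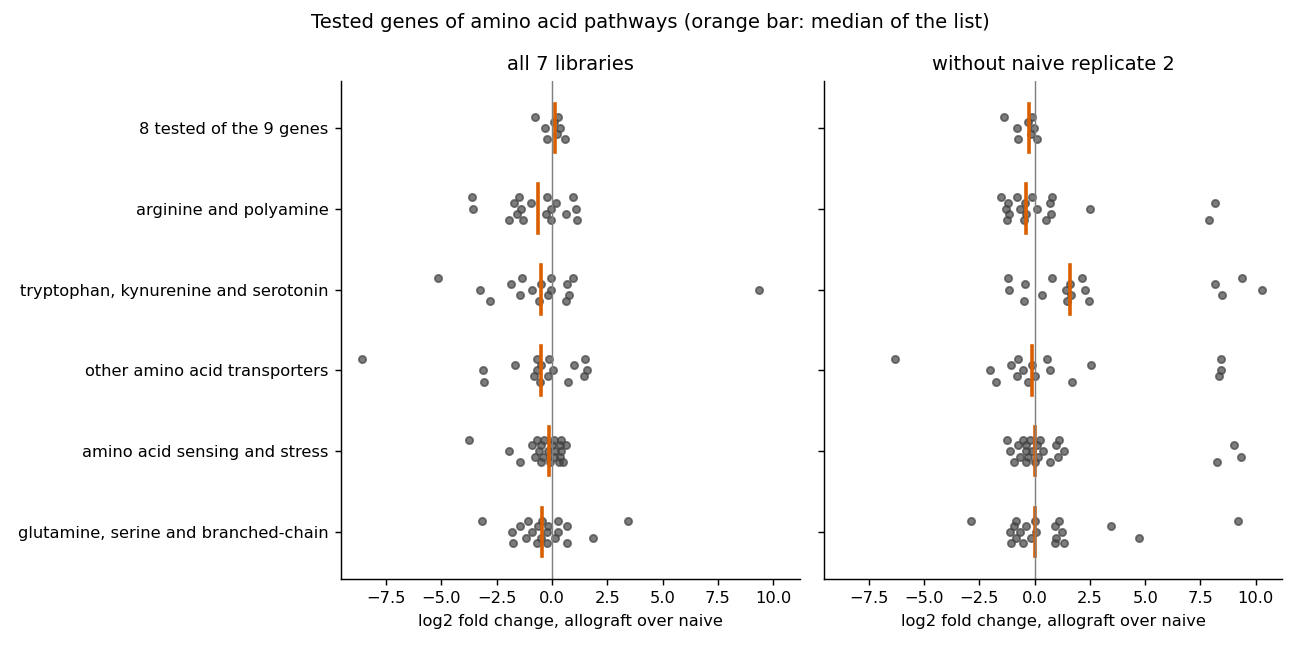
Fitted log2 fold change, allograft over naive, of the 8 tested genes and of the tested genes of 5 wider amino acid lists (1 point per gene, orange bar at the median), over all 7 libraries and without naive replicate 2. The tryptophan list has a median of -0.49 with and 1.62 without that library, and the points beyond 7.5 are genes with no count in the naive libraries kept.

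Of the other amino acid transporters, 0 of 17 tested genes passed, with a median of -0.52, or -0.13 without naive replicate 2. Naive replicate 3 was the highest library for Slc38a1 and Slc38a2, which import glutamine and other small neutral amino acids. Slc38a2 had 202, 126 and 934 CPM in naive hearts against 321 to 505 CPM in the allografts (log2 fold change -0.13, adjusted p = 0.979, and -0.52, adjusted p = 0.679, without naive replicate 2). Slc38a1 had 279, 7.30 and 845 CPM against 276 to 372 CPM (-0.17, adjusted p = 0.986, and -0.76, adjusted p = 0.350). Slc16a10, an aromatic amino acid transporter, had 24.2, 16.6 and 82.1 CPM against 7.47 to 20.0 CPM (-1.69, adjusted p = 0.357, and -2.003, adjusted p = 0.135).

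The remaining transporters named by rule had adjusted p of at least 0.341 with edgeR over all 7 libraries. Slc3a1, the heavy chain of the kidney cystine transporter, had 0, 52.3 and 12.0 CPM in naive hearts against at most 0.309 CPM in an allograft. It passed with DESeq2 (adjusted p = 0.0401), and not with edgeR without naive replicate 2 (-6.34, adjusted p = 0.267). Slc7a6, an exchanger of arginine that also uses the CD98 heavy chain, had 69.8, 21.2 and 20.2 CPM against 47.9 to 81.0 CPM (0.73, adjusted p = 0.714, and 0.55, adjusted p = 0.618, without naive replicate 2). The taurine transporter gene Slc6a6 (65.7, 167 and 104 CPM against 72.3 to 102), the lysosomal arginine sensor gene Slc38a9 (26.3, 12.8 and 86.6 against 17.7 to 35.2) and the neutral amino acid transporter gene Slc43a2 (53.5, 54.7 and 5.25 against 23.5 to 70.1) overlapped between the groups. Slc7a2 (at most 2.65 CPM), Slc7a11 (at most 2.68 CPM) and Slc7a7 (17.5 CPM in naive replicate 2, at most 2.88 elsewhere) were near the floor.

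Among genes of amino acid sensing and stress, 0 of 24 tested genes passed, with a median of -0.12, or 0.03 without naive replicate 2. Atf4, the transcription factor of the amino acid response, had 326, 117 and 610 CPM in naive hearts against 141, 355, 287 and 385 CPM in allografts (log2 fold change -0.38, adjusted p = 0.898, and -0.74, adjusted p = 0.388, without naive replicate 2). Its target Asns had 8.11, 16.6 and 0 CPM against 5.03 to 15.9 CPM. Mtor, the kinase of the growth pathway that amino acids switch on, had 39.3, 21.9 and 29.3 CPM against 18.9 to 25.7 CPM (-0.60, adjusted p = 0.663, and with DESeq2 -0.79, adjusted p = 0.0176). The change of Mtor was -0.65 (adjusted p = 0.320) without naive replicate 2. Rheb, Rraga and Lamtor2, of the machinery that activates it on lysosomes, had changes of -0.48, -0.91 and -0.48 with adjusted p between 0.656 and 0.741, and of -0.23, -1.27 and -0.39 without naive replicate 2. Rragd had 54.6 CPM in naive replicate 2, 0 in the other naive libraries and 0.954 to 2.71 CPM in allografts. Of the fits run, it passed only in the one without naive replicate 2 (adjusted p = 0.0485 by edgeR), and DESeq2 gave no p for it. The allograft mean was then at least 31.7-fold higher, counting naive replicates 1 and 3 at 3 counts each. That bound allows for counting error only.

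In the list of glutamine, serine and branched-chain genes 0 of 21 passed, with a median of -0.43, or 0.04 without naive replicate 2. Prodh, which starts proline breakdown, had 4.47, 41.4 and 70.1 CPM in naive hearts against 4.13 to 6.41 CPM in the allografts (log2 fold change -3.15, SE 0.860, adjusted p = 0.238). It passed with DESeq2 (adjusted p = 0.00528) and without naive replicate 1 (-3.67, adjusted p = 0.0328), and not without naive replicate 2 (-2.90, adjusted p = 0.161). Glud1, glutamate dehydrogenase, had 149, 113 and 72.4 CPM against 205 to 218 CPM, and Cad, of pyrimidine synthesis from glutamine, 20.1, 0.747 and 4.59 CPM against 24.03 to 41.2 CPM. Every allograft lay above every naive library for both, with changes of 0.69 (adjusted p = 0.576) and 1.87 (adjusted p = 0.574). These were 0.90 (adjusted p = 0.187) and 1.32 (adjusted p = 0.312) without naive replicate 2. Bckdhb, of branched-chain breakdown, had 12.0, 70.7 and 27.8 CPM against 12.5 to 16.8 CPM (-1.79, adjusted p = 0.424). Naive replicate 2 was its highest library, and without it the change was -0.55 (adjusted p = 0.6002). Gls2 falls outside the naming rule. It had 0.170, 0.242 and 0.436 CPM in naive hearts against 1.68 to 7.22 CPM in the allografts. Its change was 3.42 (adjusted p = 0.341 with edgeR), and 3.47 (adjusted p = 0.166) without naive replicate 2. With DESeq2 it passed (3.23, adjusted p = 0.00361).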

How the data were processed

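RNA of sorted ILC2s from 3 naive and 4 allograft pools was amplified as full-length cDNA, per the labels' protocols. The authors deposited counts per gene and FPKM for the same identifiers. The submitters' processing notes name FastQC 0.11.5, STAR 2.5.3a, StringTie 1.3.1c, DESeq2 1.16.1 and mm10 without roles. The annotation and any use of strand are not given in the sources used here. CPM are counts over the deposited library total. The counts were tested with edgeR 4.0.16 (R 4.3.3, TMM, filterByExpr, quasi-likelihood, Benjamini-Hochberg over 17015 genes, threshold 0.05). The fit was tested on simulated data. Apart from the genes set to change, its libraries shared the same mean profile, so it did not cover a library as unlike the others as naive replicate 2. Standard errors follow from the F value. Alternatives were DESeq2 1.42.0, its size factors, other filters, limma 3.58.1 on log2(FPKM + 1) and log2(FPKM + 0.1), a replicate block and leaving out each library. A count of 0 allows up to 3 counts, between 0.0566 and 0.103 CPM, for counting error only. The labels name no molecular identifiers, so reads need not be independent molecules.

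The genes, lists and tests were chosen with earlier results of these data known. Besides the 9 genes, up to 5 genes per list with the smallest p and an average log2 CPM of at least 3 are named, with 16 fixed genes and the 5 most like Arg1 and Tph1. Dohh and Itgam, each shared by 2 identifiers, were left out. Gene positions are from GENCODE M21 (mm10). 1 gene that the naming rule picked is not reported here.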

Additional observations from a re-analysis of the deposited data

Results flagged for a closer look

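Each of 72 values was screened for a lone allograft library distant from its group. The screen marked 7. By chance about 3.6 would be marked if the values were independent and normally spread. They were not, since several marked genes had no count in some allografts, and Ido1 entered both in CPM and per Gata3. No excess over chance is read from the 7. Ido1 reached 1.45 CPM in allograft replicate 2, while the rest held 0 to 0.0734, and per CPM of Gata3 it stood at 0.00189 there against 0 to 0.000104. Slc3a1 had 0.309 CPM in allograft replicate 2 and 0 in the others. Amd1 had 38.3 CPM in allograft replicate 3 against 25.0 to 26.7, and Arg2 had 3.08 CPM there against 0 to 0.481. Allograft replicate 1 had 276 CPM of Slc38a1 against 368 to 372 and 0.999 CPM of Ddc against 0 to 0.0489. Of the 8 tested genes of the report, none was marked in CPM or per Gata3.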

How the results depend on the processing

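Of the 8 tested genes, 0 passed under each of the 14 alternatives, and DESeq2 gave no p for Tph1. Ido1 was fitted only without the filter and did not pass. Over all tested genes 6 passed, against 1012 with DESeq2, 76 and 201 with limma (pseudocounts 1 and 0.1), 0 with the replicate block and 0 to 560 when leaving out a library (560 without naive replicate 2, 107 without naive replicate 1, 0 without any 1 allograft). Of the wider pathway genes 0 passed, against 9 with DESeq2, which gave some of them no p, and 0 to 2 when leaving out a library. The cause was not tested.

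Log2 fold changes turned sign as follows. With DESeq2 and with its size factors alone, Slc3a2 was -0.066 and Slc43a2 -0.22. With limma at pseudocount 1, Odc1 was 0.36, Tph1 1.299, Slc7a8 0.38, Oaz1 0.10, Ahr 0.50, Slc38a1 0.90, Slc38a2 0.44 and Asns 0.51. At pseudocount 0.1, Odc1 was 0.37, Tph1 2.92, Slc7a8 0.45, Pts 0.17, Oaz1 0.10, Ahr 0.71, Slc38a1 1.37, Slc38a2 0.46 and Asns 1.44.

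The main fit did not pair the libraries by replicate number. Deviations of same-numbered libraries from their group means correlated at 0.0169, -0.0196 and 0.0360. So few libraries cannot decide whether the numbers mark pairs. With the replicate block Odc1 was 0.17, Tph1 4.64, Slc7a8 0.15, Pts 0.015, Kyat3 0.27, Rragd 5.36, Ahr 0.66, Slc38a1 0.83, Slc38a2 0.28 and Asns 0.94.

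Leaving out 1 library at a time gave -0.017 to 3.27 for Arg1, -0.81 to 0.94 for Odc1, -1.40 to 5.82 for Tph1, -0.14 to 1.63 for Slc7a1, -0.19 to 1.74 for Slc7a5, -0.77 to 0.18 for Slc7a8 and -0.30 to 0.42 for Slc3a2. It gave -5.79 to 1.62 for Slc18a1, -3.80 to 1.62 for Kyat1, -1.41 to 0.35 for Pts, -2.34 to 1.40 for Kyat3, -1.08 to 0.31 for Slc38a9, -4.33 to 9.31 for Rragd, -4.14 to 8.16 for Arg2, -0.67 to 0.38 for Oaz1 and -0.50 to 1.502 for Ahr. Slc7a7 ranged from -3.65 to 8.35, Slc38a1 from -0.76 to 1.27, Slc38a2 from -0.52 to 1.10, Slc43a2 from -0.47 to 0.68, Atf4 from -0.74 to 0.24 and Asns from -0.64 to 1.33.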
